A study of Homo sapiens with 6 samples.

Results

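DNA replication genes were examined as a group of 44 genes, taken by gene symbol from the 58174 genes listed in each sample. The group covers origin licensing, the replicative helicase, the polymerases, the sliding clamp and its loader, flap processing, nucleotide supply and the chromatin behind the fork. T24 cells, an established human bladder cancer line, were infected with a lentivirus that carried either a scrambled short hairpin RNA (shRNA-NC, 3 samples) or a hairpin against UBC9 (shRNA-UBC9, 3 samples), selected with puromycin and kept as stable cells. The hairpins were expressed from the pLKO.1 vector. UBC9 is the E2 enzyme that conjugates SUMO to its substrates. Polyadenylated RNA was sequenced, and the authors gave RPKM, read counts scaled to the length of the gene and to the total of mapped reads. The comparison asks how far knockdown of UBC9 changed the RNA of the replication genes. A single hairpin was used, so loss of UBC9 and any other response to that hairpin cannot be told apart. The labels do not say that replicates came from separate cultures, so the p-values measure the spread between these samples, which may be technical.

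In G1 the origin recognition complex, with CDC6 and CDT1, loads the MCM2 to MCM7 ring onto replication origins, a step called licensing, and geminin holds CDT1 in check afterwards. In S phase CDC45 and the GINS complex join the ring to form the active CMG helicase, the polymerase alpha and primase complex starts each strand, and polymerases epsilon and delta extend it on the PCNA clamp. Many of these genes are transcribed at the G1 to S boundary under E2F transcription factors, so their RNA is high in dividing cells. PCNA is among the known substrates of SUMO conjugation.

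From the size of a 1-read step in the RPKM values, the samples held about 28220000 to 36060000 mapped reads. A replication gene was covered by 326 to 12255 reads in a sample, with a median of 2030. KRT7, KRT8 and KRT18, keratins of simple epithelium, were expressed in all 6 samples, and CDH1 did not exceed 0.00449 RPKM in any. The summed level of 6 epithelial markers was 938 to 1108 RPKM in the shRNA-NC group and 426 to 563 RPKM in the shRNA-UBC9 group. Of these markers KRT7, KRT8, KRT18 and KRT19 were called lower. EPCAM went the other way, from a mean of 0.658 to 1.505 RPKM, and was not called (log2 fold change 0.996, limma adjusted p = 0.0984). The summed level of 7 urothelial markers was 22.9 to 30.1 RPKM against 6.50 to 11.2 RPKM, with KRT20 at 0. That of 6 leukocyte markers was 0.675 to 1.42 against 0.758 to 1.76 RPKM, that of 6 fibroblast markers 0.988 to 1.32 against 0.893 to 1.30 RPKM, and that of 4 endothelial markers 2.63 to 3.26 against 0.338 to 1.07 RPKM. Of the fibroblast markers, COL1A1 was called higher (log2 fold change 0.95, limma adjusted p = 0.0276) and PDGFRB lower (log2 fold change -1.48, adjusted p = 0.00325). The endothelial fall lay in CDH5, from a mean of 2.87 to 0.619 RPKM (-2.20, limma adjusted p = 0.00288). PECAM1, VWF and KDR did not exceed 0.0707 RPKM in any sample. The urothelial fall lay in PPARG (-2.15, limma adjusted p = 0.00169) and GATA3 (-0.79, adjusted p = 0.016). The uroplakin genes UPK1A, UPK1B, UPK2 and UPK3A did not exceed 0.1254 RPKM. The part of these marker differences in the results on replication genes was not tested.

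Knockdown of UBC9 went with lower RNA of the replication genes, in 23 of 44 genes. All 44 genes passed the filter for expression (at least 0.5 RPKM in at least 3 of the 6 samples), which 12428 genes passed. By limma on log2(RPKM + 0.1), 23 of the 44 were down-regulated at a Benjamini-Hochberg adjusted p below 0.05, which is 52.3%, where 18% of all genes tested were called lower. Of the 7696 genes at least as abundant on average as the least abundant replication gene, 19.9% were called lower. No replication gene was called higher, and the count of higher calls was also 0 at an unadjusted p below 0.05 and with voom, where 18.8% of all genes tested were called higher by limma. The log2 fold change was below 0 in 43 of the 44 genes and in 49.4% of all genes. The median was -0.43, against 0.005 over all genes tested. The 23 calls became 15 without shRNA-NC replicate 1, where the median was -0.43, 17 without shRNA-NC replicate 2 and 27 without shRNA-UBC9 replicate 3. A part of the smaller number of samples in these counts was not tested. With voom on whole reads recovered from the RPKM values the calls numbered 25, where 18.2% of all genes tested were called lower. In bulk RNA, fewer cells in S phase and less of each RNA per cell cannot be told apart.

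In 27 of the 44 genes every shRNA-UBC9 sample lay below every shRNA-NC sample, an order found in 25.4% of all genes tested, and in the remaining 17 the groups overlapped. The down-regulated genes ran from FEN1 at -0.39 to TYMS at -1.004. TYMS alone passed the DEG threshold (absolute log2 fold change above 1 with adjusted p below 0.05), which 7.89% of all genes tested passed. The number past it was 0 without shRNA-NC replicate 2 or without shRNA-UBC9 replicate 1, and 2 without shRNA-UBC9 replicate 3. For each of the 21 genes not called, the 95% interval of the log2 fold change lay above -1, and the smallest adjusted p among them was 0.0502 for MCM5.

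**Figure D1:**
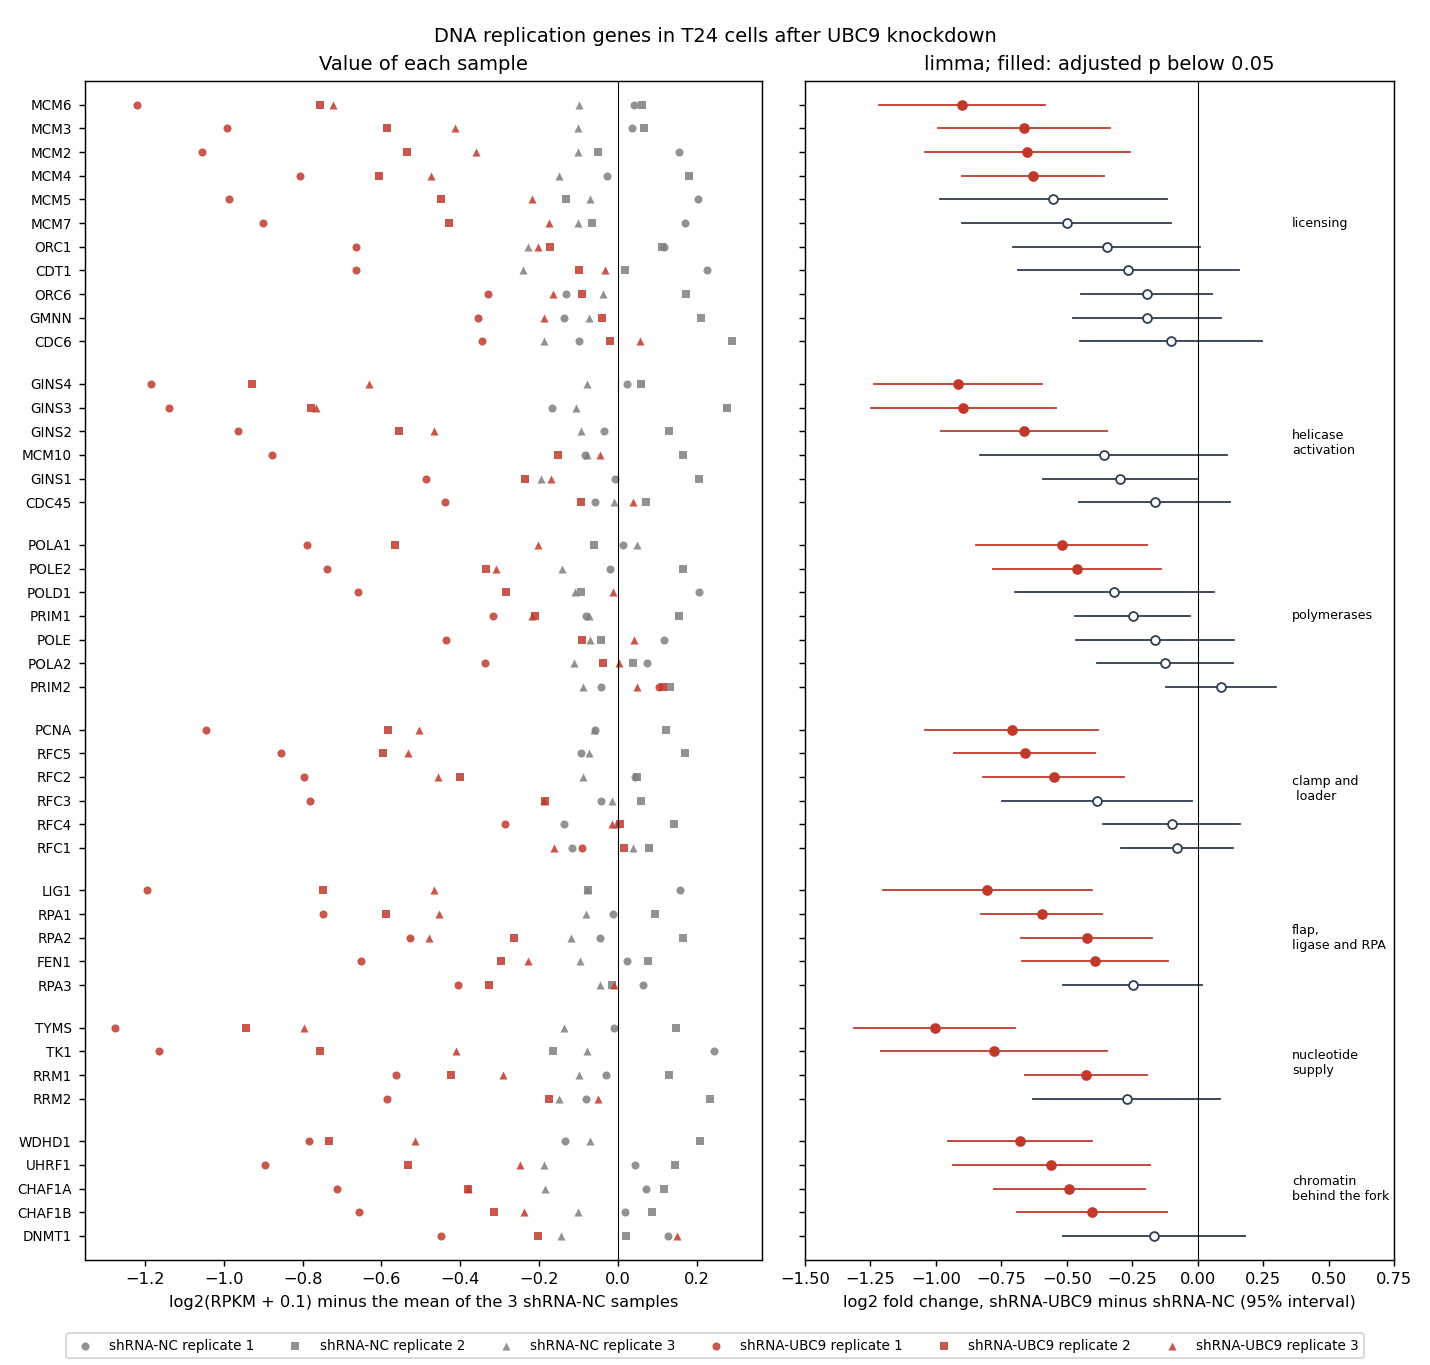
The 44 replication genes by role, with the log2(RPKM + 0.1) of each sample less the shRNA-NC mean on the left (grey shRNA-NC, red shRNA-UBC9, with circle, square and triangle for replicates 1, 2 and 3) and the limma log2 fold change with its 95% interval on the right, filled where the adjusted p was below 0.05. The 23 filled points lie between -1.004 and -0.39, and PRIM2, at 0.09, is the only gene above 0.

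The shRNA-UBC9 samples differed from each other in these genes more than the shRNA-NC samples did. Over the 44 genes, the mean log2 value less the shRNA-NC mean was -0.71 in shRNA-UBC9 replicate 1, -0.37 in replicate 2 and -0.27 in replicate 3, against 0.01, 0.09 and -0.10 in shRNA-NC replicates 1, 2 and 3. shRNA-UBC9 replicate 1 was the lowest of its group in 42 of the 44 genes (95.5%), where it was the lowest in 41.7% of all genes tested, and it was the lowest in all 23 down-regulated genes. The median SD over genes, on the log2 scale, was 0.243 in the shRNA-UBC9 group and 0.138 in the shRNA-NC group, where all genes gave 0.139 and 0.130. Without shRNA-UBC9 replicate 1, 20 of the 23 genes were still called lower, the exceptions being POLE2, FEN1 and CHAF1B, and the median of the 44 was -0.31.

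**Figure D2:**
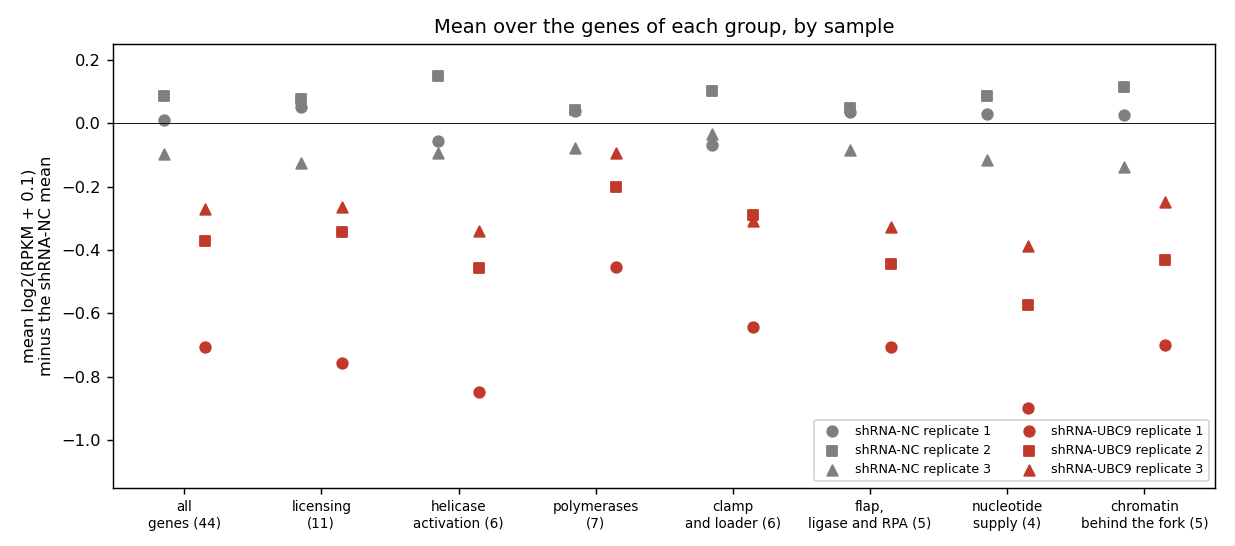
Mean over the genes of each role, by sample, of log2(RPKM + 0.1) less the shRNA-NC mean, with the number of genes in brackets. In every role the lowest point is shRNA-UBC9 replicate 1, from -0.90 for nucleotide supply to -0.45 for polymerases, and all 3 shRNA-UBC9 points lie below the 3 shRNA-NC points. For polymerases the groups nearly meet, with shRNA-UBC9 replicate 3 at -0.094 and shRNA-NC replicate 3 at -0.078.

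Promoter sequences are shown for the down-regulated genes that hold letters of the E2F consensus, since E2F factors are known to act at promoters of replication genes. RefSeq promoters of GRCh38.p14, from 250 bases before to 50 after the start site, were on hand for 39 of the 44 genes. Both strands were searched for TTTCCCGC, TTTCGCGC, TTTGCCGC and TTTGGCGC, letters of the E2F consensus. They occurred in 17 of the 39 promoters (43.6%), in 5.41% of the 9180 promoters of genes tested and in 3.27% of all 27305 promoters. Among down-regulated replication genes 10 of 20 promoters held them (50%), and among those not called 7 of 19 (36.8%), so the letters were present on either side of the threshold. CCAAT, on either strand, occurred in 53.8% of the 39 and in 36.7% of the promoters of genes tested. A match describes letters and is not evidence of binding, and a promoter without them may use others. The 10 down-regulated genes with a match are shown with a window of 30 bases each, 5′ to 3′ on the strand of the gene, with the matching letters in capitals. Where a promoter held more than 1 match the window nearest the start site is given, and in MCM2 and MCM6 matches of opposite strands overlapped. Positions are those of the first capital, counted from the start site, with a minus sign before it.
MCM2 (chr3:127598402-127598431, plus strand, first capital at 3): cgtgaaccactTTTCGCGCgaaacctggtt
MCM3 (chr6:52284728-52284757, minus strand, first capital at -4): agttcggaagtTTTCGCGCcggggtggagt
MCM6 (chr2:135876511-135876540, minus strand, first capital at -86): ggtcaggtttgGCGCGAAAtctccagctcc
GINS2 (chr16:85688967-85688996, minus strand, first capital at -31): ctctcgccgtgGCGGGAAAacggcggccgc
GINS3 (chr16:58392455-58392484, plus strand, first capital at -5): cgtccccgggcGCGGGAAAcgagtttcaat
POLA1 (chrX:24693770-24693799, plus strand, first capital at -137): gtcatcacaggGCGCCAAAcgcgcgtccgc
POLE2 (chr14:49688201-49688230, minus strand, first capital at -5): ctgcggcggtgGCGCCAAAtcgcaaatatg
LIG1 (chr19:48170440-48170469, minus strand, first capital at -114): acttcacccctTTTCCCGCcctcctcccat
TYMS (chr18:657603-657632, plus strand, first capital at -39): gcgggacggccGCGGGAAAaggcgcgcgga
UHRF1 (chr19:4909476-4909505, plus strand, first capital at -14): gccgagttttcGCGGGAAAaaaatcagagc

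Of the 11 licensing genes, 4 were called lower (36.4%), all in the MCM2 to MCM7 ring, and 7 were not called. By role, the share called lower ran from 28.6% for polymerases to 80% for flap processing and for chromatin behind the fork. Over all genes tested it was 18%. The median of the 11 log2 fold changes was -0.50. The 6 ring genes encode the subunits of the helicase core. MCM6 measured 24.4, 24.7 and 22.1 RPKM in shRNA-NC replicates 1, 2 and 3 and 10.1, 14 and 14.3 RPKM in shRNA-UBC9 replicates 1, 2 and 3, an order of replicates kept for every gene given by sample. The signed values in brackets are log2 fold changes, shRNA-UBC9 minus shRNA-NC, with adjusted p from limma. Its groups were well apart, and its log2 fold change of -0.90 (SE 0.14, adjusted p = 0.00194) was the lowest in the ring. MCM3 gave 64.6, 65.9 and 58.7 against 31.6, 41.9 and 47.2 RPKM (-0.66, SE 0.14, adjusted p = 0.00851). MCM2 gave 43.4, 37.6 and 36.3 against 18.7, 26.9 and 30.3 RPKM (-0.65, SE 0.17, adjusted p = 0.0191). MCM4 gave 43.0, 49.7 and 39.5 against 25.1, 28.8 and 31.5 RPKM (-0.63, SE 0.12, adjusted p = 0.0047). In each of these genes the highest shRNA-UBC9 sample, replicate 3, stayed below the lowest shRNA-NC sample. Without shRNA-NC replicate 1 the adjusted p of MCM2 was 0.0703, over a range of 0.00807 to 0.0703 across all alternatives. MCM2 shares 23.6% of its exonic bases, and GINS4 21.0%, with genes on the opposite strand in GENCODE release 44 that were not analysed here, and whether strand was used in counting is not stated.

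MCM5 and MCM7, the other two ring genes, showed the same order of groups but were not called. MCM5 measured 28.8, 22.8 and 23.8 RPKM in the shRNA-NC group and 12.6, 18.3 and 21.5 RPKM in the shRNA-UBC9 group (log2 fold change -0.55, SE 0.19, adjusted p = 0.0502). MCM7 measured 79.0, 67.2 and 65.5 against 37.6, 52.2 and 62.2 RPKM (-0.50, SE 0.17, adjusted p = 0.0528). In both, shRNA-UBC9 replicate 3 came close to the lowest shRNA-NC sample. With voom both were called (adjusted p = 0.0448 for MCM5 and 0.048 for MCM7), as they were without shRNA-UBC9 replicate 3 (0.0163 and 0.0141), and over all alternatives the adjusted p reached 0.157 and 0.161. Summed over MCM2 to MCM7, the level was 246 to 283 RPKM in the shRNA-NC group and 136 to 207 RPKM in the shRNA-UBC9 group. By RPKM, a level per length, the order in the shRNA-NC group was MCM7, MCM3, MCM4, MCM2, MCM5 and MCM6, where the ranges of MCM7 and MCM3, of MCM4 and MCM2 and of MCM5 and MCM6 overlapped. The log2 ratio of MCM6 to MCM7, chosen after the values were seen, was -1.56 ± 0.127 (SD, n = 3) in the shRNA-NC group and -1.96 ± 0.129 in the shRNA-UBC9 group. The difference of -0.40 separated all samples of the groups (exact two-sided permutation p = 0.1, the smallest possible with 3 against 3). Since this pair was picked as the largest and smallest fall of the ring, that p is no test of a shift between subunits.

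The licensing genes outside the ring were not called. ORC1, the largest subunit of the origin recognition complex, measured 10.1, 10.1 and 7.93 against 5.83, 8.23 and 8.06 RPKM, so that the groups overlapped (-0.35, adjusted p = 0.115). ORC6, CDC6, CDT1 and GMNN had log2 fold changes of -0.26 to -0.10, with overlapping groups in each. CDC6, the loader ATPase, had an interval from -0.45 to 0.24, and its sign turned to 0.04 without shRNA-NC replicate 2 and to 0.02 without shRNA-UBC9 replicate 1. The log2 ratio of CDT1 to GMNN, licensing factor to inhibitor, was 0.307, -0.246 and -0.221 in the shRNA-NC samples and -0.361, -0.113 and 0.102 in the shRNA-UBC9 samples. These values overlapped (difference -0.071, exact two-sided permutation p = 0.7), and no shift in that balance was detectable with 3 samples a group.

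**Figure D3:**
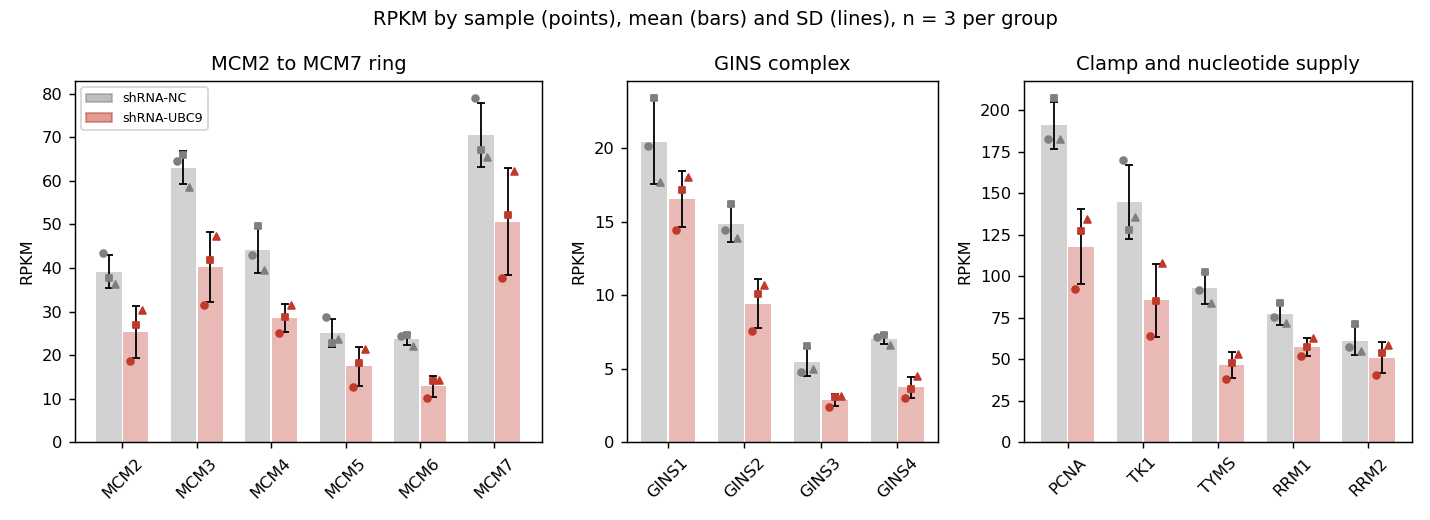
RPKM of the MCM2 to MCM7 ring, the GINS complex, the clamp PCNA and the nucleotide supply genes, with points for samples, bars for the mean and lines for the SD (n = 3 per group). The shRNA-UBC9 points lie below all shRNA-NC points for every gene drawn except GINS1 and RRM2, with GINS4 falling from a mean of 7.03 to 3.73 RPKM.

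Of the 6 helicase activation genes, 3 were called lower (50%, against 18% of all genes tested), all of them GINS subunits, and the median was -0.51. GINS4 measured 7.13, 7.31 and 6.64 RPKM in the shRNA-NC group and 3.03, 3.64 and 4.50 RPKM in the shRNA-UBC9 group (-0.91, SE 0.14, adjusted p = 0.0019). GINS3 measured 4.78, 6.54 and 4.99 against 2.39, 3.09 and 3.12 RPKM (-0.89, SE 0.15, adjusted p = 0.00307). GINS2 measured 14.5, 16.2 and 13.9 against 7.54, 10.1 and 10.7 RPKM (-0.66, SE 0.14, adjusted p = 0.00727). None of the 3 overlapped between groups, with shRNA-UBC9 lower, an order found in 25.4% of all genes tested. GINS3, at a mean of 5.43 RPKM in the shRNA-NC group, was the least abundant of the 44 genes. GINS1, the fourth subunit, measured 20.1, 23.4 and 17.7 against 14.4, 17.2 and 18.01 RPKM, with overlap between the groups (-0.30, adjusted p = 0.102). The log2 ratio of GINS4 to GINS1, also chosen after the values were seen, went from -1.52 ± 0.135 (SD, n = 3) to -2.13 ± 0.133 with no overlap (difference -0.62, exact two-sided permutation p = 0.1, the smallest possible). Here too the pair held the largest and smallest fall of the complex, so the p is no test. MCM10, which helps to activate the helicase, measured 6.86, 8.17 and 6.88 against 3.92, 6.54 and 7.05 RPKM, where shRNA-UBC9 replicates 1 and 2 lay below the shRNA-NC samples and replicate 3 lay among them (-0.36, adjusted p = 0.206). CDC45 had a log2 fold change of -0.16 with an interval of -0.45 to 0.12.

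Of the 7 polymerase genes, 2 were called lower (28.6%), near the 19.9% of genes at least as abundant as the least abundant replication gene. The polymerase median of -0.25 was the closest to 0 of any role. POLA1, the catalytic subunit of polymerase alpha, measured 10.7, 10.2 and 10.99 RPKM in the shRNA-NC group and 6.11, 7.15 and 9.22 RPKM in the shRNA-UBC9 group (-0.52, SE 0.14, adjusted p = 0.0229). POLE2, the B subunit of polymerase epsilon, measured 6.49, 7.39 and 5.95 against 3.90, 5.20 and 5.29 RPKM (-0.46, SE 0.14, adjusted p = 0.0324). Both had groups that did not overlap, but neither call held throughout. POLA1 was not called without shRNA-NC replicate 1, shRNA-NC replicate 3 or shRNA-UBC9 replicate 2, and POLE2 without shRNA-NC replicate 1, shRNA-NC replicate 2 or shRNA-UBC9 replicate 1 (adjusted p up to 0.0774 and 0.0979, from 0.00344 and 0.0233). POLD1, the catalytic subunit of polymerase delta, measured 20.5, 16.6 and 16.5 against 11.2, 14.6 and 17.6 RPKM, and shRNA-UBC9 replicate 3 lay within the shRNA-NC range (-0.32, adjusted p = 0.167, or 0.0447 without that sample and 0.0447 to 0.414 over all alternatives). PRIM1, the small primase subunit, did not overlap between groups but was not called (-0.25, adjusted p = 0.0742, or 0.039 with quantile and 0.0371 with median scaling, and up to 0.19). POLA2 and POLE overlapped, at -0.12 and -0.16. PRIM2, the large primase subunit, was the exception to the direction at 0.09 (interval -0.12 to 0.30), and its samples overlapped.

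PCNA and some of its loader subunits were down-regulated, 3 of 6 genes (50%, against 18% of all genes tested) with a median of -0.47. In 4 of the 6 all shRNA-UBC9 samples lay below all shRNA-NC samples, an order found in 25.4% of all genes tested. PCNA, the sliding clamp and the most abundant of the 44 genes, measured 183, 207 and 183 RPKM in the shRNA-NC group and 92.4, 127 and 134 RPKM in the shRNA-UBC9 group. On the fitted log2 scale it was 38.9% lower (-0.71, SE 0.14, adjusted p = 0.00622), with no overlap. Of the replication factor C subunits that open and load the clamp, RFC5 measured 11.6, 13.9 and 11.7 against 6.79, 8.13 and 8.50 RPKM (-0.66, SE 0.12, adjusted p = 0.00365). RFC2 measured 25.1, 25.3 and 22.9 against 14.02, 18.5 and 17.8 RPKM (-0.55, SE 0.12, adjusted p = 0.00795). RFC3 measured 12.4, 13.3 and 12.7 against 7.40, 11.2 and 11.2 RPKM, apart between groups but not called (-0.38, adjusted p = 0.0905). RFC1, the large subunit, and RFC4 stayed near the control level, at -0.08 and -0.10, with intervals of -0.29 to 0.13 and -0.36 to 0.16. Within this loader the log2 fold changes spanned -0.66 to -0.08.

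The genes of flap processing, ligation and single-strand binding were called lower in 4 of 5 cases (80%, against 18% of all genes tested), with a median of -0.42. LIG1, the ligase that joins Okazaki fragments, measured 12.9, 10.99 and 10.96 RPKM in the shRNA-NC group and 5.01, 6.86 and 8.36 RPKM in the shRNA-UBC9 group (-0.80, SE 0.17, adjusted p = 0.0086). FEN1, the flap endonuclease, measured 67.2, 69.8 and 61.9 against 42.1, 53.9 and 56.5 RPKM (-0.39, SE 0.12, adjusted p = 0.0351). Neither gene overlapped between groups, but of the fits that left out a sample FEN1 was called only in that without shRNA-UBC9 replicate 3 (adjusted p 0.0141 to 0.0967 over all alternatives). RPA1, the large subunit of the single-strand binding complex, measured 30.3, 32.7 and 28.9 against 18.2, 20.3 and 22.3 RPKM (-0.60, SE 0.10, adjusted p = 0.00284). RPA2 measured 28.3, 32.8 and 26.9 against 20.3, 24.3 and 20.9 RPKM (-0.42, SE 0.11, adjusted p = 0.0177). The RPA1 and RPA2 groups were also apart, with shRNA-UBC9 lower, an order found in 25.4% of all genes tested. RPA2 missed the threshold without shRNA-NC replicate 2 (adjusted p = 0.0515, range 0.0105 to 0.0515). RPA3 overlapped between groups (-0.25, adjusted p = 0.128, or 0.0284 without shRNA-UBC9 replicate 3 and up to 0.297).

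Nucleotide supply held the largest change and the largest median of any role, -0.60, with 3 of 4 genes called lower (75%, against 18% of all genes tested). TYMS, thymidylate synthase, measured 91.6, 102 and 84.0 RPKM in the shRNA-NC group and 38.1, 48.01 and 53.2 RPKM in the shRNA-UBC9 group. On the fitted log2 scale it was 50.1% lower (-1.004, SE 0.13, adjusted p = 0.00104), and its rank by level among the 44 genes went from 3 to 7. GENCODE release 44 has ENOSF1 on the opposite strand over 39.9% of the exonic bases of TYMS; ENOSF1 was at 4.91 RPKM in the shRNA-NC group and 3.57 RPKM in the shRNA-UBC9 group, so the same limit applies. TK1, the salvage thymidine kinase, measured 169.9, 128 and 136 against 64.0, 84.9 and 108 RPKM (-0.78, SE 0.19, adjusted p = 0.0138). RRM1, the large subunit of ribonucleotide reductase, measured 75.3, 84.1 and 71.8 against 52.0, 57.2 and 62.8 RPKM (-0.43, SE 0.10, adjusted p = 0.0126). These 3 genes had groups apart, with shRNA-UBC9 lower, an order found in 25.4% of all genes tested. TK1 missed the threshold without shRNA-NC replicate 1 (adjusted p = 0.0535, range 0.00364 to 0.0535). RRM2, the S phase subunit of the same enzyme, overlapped between groups at -0.27 (adjusted p = 0.207), and its ranks were 8 and 4. The log2 ratio of RRM2 to RRM1 differed by 0.155 between the groups (exact two-sided permutation p = 0.2).

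Of the 5 genes grouped here under chromatin behind the fork, 4 were called lower (80%, against 18% of all genes tested), with a median of -0.49. The group includes WDHD1, which acts at the fork itself. WDHD1, which couples the helicase to polymerase alpha, measured 10.7, 13.5 and 11.1 RPKM in the shRNA-NC group and 6.76, 7.001 and 8.16 RPKM in the shRNA-UBC9 group (-0.68, SE 0.12, adjusted p = 0.00353). UHRF1, which brings DNMT1 to newly copied DNA, measured 34.3, 36.8 and 29.2 against 17.9, 23.0 and 28.0 RPKM (-0.56, SE 0.16, adjusted p = 0.0292). CHAF1A, the large subunit of the histone chaperone CAF-1, measured 16.3, 16.8 and 13.6 against 9.42, 11.9 and 11.9 RPKM (-0.49, SE 0.13, adjusted p = 0.0172). In all 3 genes shRNA-UBC9 replicate 1 was lowest and the groups were apart, with shRNA-UBC9 lower, an order found in 25.4% of all genes tested. CHAF1B, another CAF-1 subunit, measured 6.93, 7.27 and 6.37 against 4.31, 5.48 and 5.78 RPKM (-0.40, SE 0.12, adjusted p = 0.0353), again without overlap. CHAF1A was not called without shRNA-NC replicate 1 or 2 (adjusted p up to 0.0594, from 0.0105), and UHRF1 without those or shRNA-UBC9 replicate 2 (up to 0.0889, from 0.00824). Of the fits that left out a sample, CHAF1B was called only in that without shRNA-UBC9 replicate 3 (adjusted p 0.025 to 0.0977 over all alternatives). DNMT1, the maintenance methyltransferase, was not called (-0.17, interval -0.52 to 0.18), and shRNA-UBC9 replicate 3 was the highest of the 6 samples.

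Beside the 44, 48 further replication genes were tested, with a median of -0.32. Of these, 26 were called lower (54.2%, against 18% of all genes tested) and 1, ORC4, higher at 0.38. Among those called, the fork protection gene TIMELESS had a log2 fold change of -0.95. The histone chaperone gene ASF1B gave -0.94, PCLAF, whose product binds PCNA, -0.83 and the thymidylate kinase gene DTYMK -0.79. The 27 calls in either direction numbered 17, 13 and 16 without shRNA-NC replicates 1, 2 and 3 and 16 without shRNA-UBC9 replicate 1. Of 25 genes that control the G1 to S transition, 8 were called lower (32%) and 3 higher, with a median of -0.24. Over all genes tested, 18% were called lower and 18.8% higher. The 11 calls among the 25 genes were 7 without shRNA-NC replicate 1 or shRNA-UBC9 replicate 2. CDKN1A, the inhibitor p21 that halts cyclin-dependent kinases, measured 9.48, 8.72 and 8.91 RPKM in the shRNA-NC group and 45.3, 36.9 and 33.2 RPKM in the shRNA-UBC9 group (2.07, SE 0.12, adjusted p = 2.18e-05). CCND3, a D-type cyclin, rose by 0.91, and RBL2, a pocket protein of the RB family, CCNE2, a cyclin of S phase entry, and the CDK4 and CDK6 inhibitor CDKN2C had log2 fold changes of -0.86, -0.83 and -0.61. CDKN2C was not called without shRNA-NC replicate 1, shRNA-NC replicate 3 or shRNA-UBC9 replicate 2 (adjusted p up to 0.0724, from 0.00344).

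Of 39 mitosis genes, 37 (94.9%) were called lower, against 18% of all genes tested, and the median was -0.62. In all 39 every shRNA-UBC9 sample lay below every shRNA-NC sample, an order found in 25.4% of all genes tested. KIF20A and NUSAP1, of the late spindle, gave -1.30 and -1.24, MYBL2, a regulator of mitotic transcription, -1.12, SPC24, of the kinetochore, -1.11 and TOP2A, the topoisomerase that untangles chromosomes, -1.06. shRNA-UBC9 replicate 1 was the lowest of its group in 33 of the 39 mitosis genes, in 41 of the 48 further replication genes and in 15 of the 25 control genes. The E2F letters occurred in 9.09% of the 33 mitosis promoters on hand and CCAAT in 78.8%, against 43.6% and 53.8% in the replication genes. Whether the lists differed from each other was not tested.

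**Figure D4:**
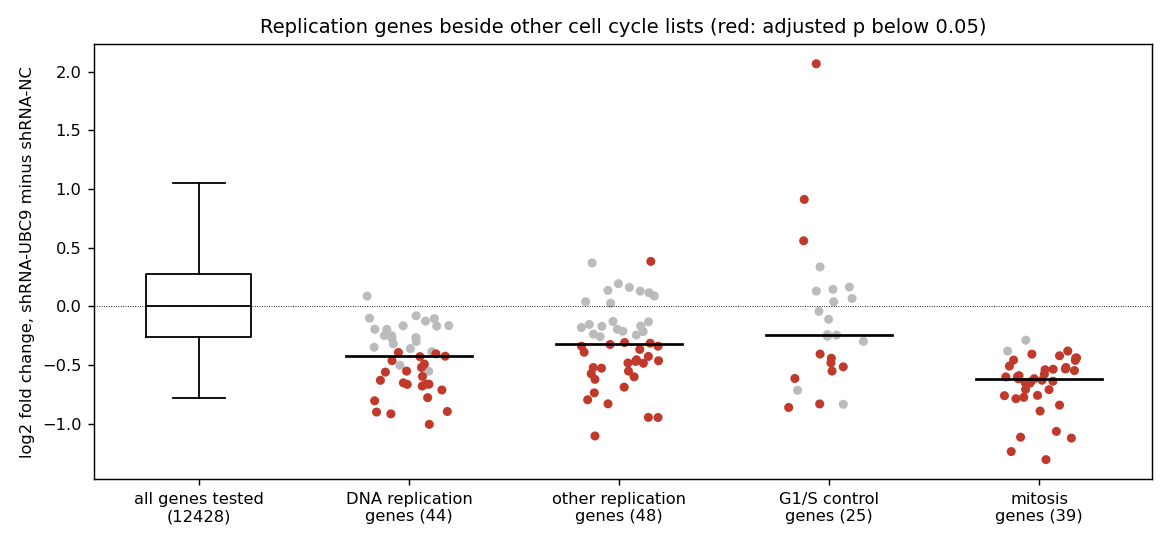
Log2 fold change of each gene (shRNA-UBC9 minus shRNA-NC, limma) for the 44 replication genes and 3 other lists, red where the adjusted p was below 0.05, with a line at the list's median, and a box with quartiles and whiskers from the 5th to the 95th percentile for all 12428 genes tested. The medians are -0.43 for the replication genes, -0.32 for 48 further replication genes, -0.24 for 25 G1 to S control genes and -0.62 for 39 mitosis genes, with CDKN1A at 2.07 at the top.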

How the data were processed

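RNA-seq values of 6 T24 samples were used. The authors trimmed reads, mapped them to GRCh38 (hg38 in the submitters' processing notes) in the CLC Biomedical Genomics Workbench at default settings, and deposited RPKM for 58174 genes per sample. The annotation release and the use of strand are not given in the sources used here. RPKM was taken to log2(RPKM + 0.1), and genes of at least 0.5 RPKM in at least 3 samples were tested with limma 3.58.1 in R 4.3.3 (intensity trend, no covariates, Benjamini-Hochberg over all 12428 genes). A fold change on this scale understates the change of low genes. The fit was tested on simulated data. With GENCODE release 44 gene lengths, the RPKM values gave whole reads for 100% of genes tested (tolerance 0.02 reads); voom on these reads was an alternative added after seeing the data.

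The replication genes and all other lists were chosen with earlier results of these data known. By rule, values of each sample were given for each called member and for the 6 uncalled members with the largest fold change, and at most 5 called genes were named from each other list (the level of the hairpin's target and some other items are not reported here); GINS1 values, ORC4 and the ratios marked as such were chosen afterwards. Calls were repeated with other pseudocounts, filters, scalings, variance models, a replicate block and each sample left out. Python 3.11.15 was used for the description and figures.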

Additional observations from a re-analysis of the deposited data

How the results depend on the processing

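No replication gene was called higher under any of the alternatives run. Except with voom (18.2%), the share of all genes called lower was not counted in these alternatives. A shift in calls over all genes and a shift in the replication genes therefore cannot be told apart. The count of replication genes called lower ranged from 15 (without shRNA-NC replicate 1) to 27 (without shRNA-UBC9 replicate 3) as each sample was left out. It was 17 with no filter on low values, 24 with a pseudocount of 1 and 26 with quantile or median scaling. With the replicate block it was 20, FEN1, UHRF1 and CHAF1B being lost, although samples with the same replicate number share only that number and did not deviate together (correlations -0.367, 0.073 and -0.17). The highest correlation across the groups, 0.526, was between shRNA-NC replicate 1 and shRNA-UBC9 replicate 3. These samples had the fewest mapped reads (about 29850000 and 28220000), and a part of depth was not tested. The number past the DEG threshold was 0 with a pseudocount of 1 and 0 to 2 as samples were left out. The further replication genes called numbered 15 with no filter and 13 to 20 as samples were left out, and the G1 to S control genes 7 with no filter and 7 to 13. CDC6 turned to 0.04 without shRNA-NC replicate 2 and to 0.02 without shRNA-UBC9 replicate 1, within a range of -0.20 to 0.04. The log2 ratio of CDT1 to GMNN turned to 0.11 without shRNA-NC replicate 1 and to 0.048 without shRNA-UBC9 replicate 1, within a range of -0.184 to 0.11. The cause of these changes was not tested. Over 59 genes and 16 alternatives, 884 of 944 results kept direction and side of the threshold, 38 were no longer called, 20 became called and 2 turned.
Calls near the threshold depend on 3 samples a group, and reads that fall on overlapping genes could not be separated.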
